A study of Homo sapiens with 6 samples.

Results

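Neuropeptide genes of the sympathoadrenal lineage were read in 6 RNA libraries of human neuroblastoma lines. The set was fixed by symbol and holds 10 genes, NPY, GAL, VIP, PENK, ADCYAP1, TAC1, SST, CALCA, CALCB and CARTPT, all of which are among the 25370 rows of the count table. Neuroblastoma arises from sympathoadrenal progenitors, and BE2C and Kelly are neuroblastoma lines with amplified MYCN. One group was BE2C with overexpression of LMO1, a LIM-only transcriptional co-regulator (2 libraries). The others were unmodified Kelly cells (1 library), unmodified parental BE2C cells (1 library) and BE2C carrying a vector control (2 libraries). All BE2C groups share the genetic background of that line, and no other treatment is labelled. The promoter that drives LMO1, the time after its introduction, and whether modified cells were clones or pools are not given in the sources used here. Whether libraries with the same label stem from separate cultures is not stated, and the p-values below therefore cover the spread between libraries alone, which may be technical.

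A neuropeptide is made as a longer precursor, cut by prohormone convertases, trimmed and often amidated, stored in dense-core vesicles and released by calcium entry. Noradrenergic sympathetic neurons typically store NPY beside noradrenaline, whereas VIP and CGRP are typical of cholinergic sympathetic neurons. Sympathetic tumours can secrete such peptides, and VIP from neuroblastic tumours is a known cause of watery diarrhoea. LMO proteins do not bind DNA themselves and are known to join GATA and basic helix-loop-helix factors in complexes.

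The sequence before the transcription start is shown for NPY, SST, CARTPT and VIP. NPY and SST were called in LMO1 against vector, and CARTPT and VIP were not. Each of them differed at least 2-fold between the Kelly and parental BE2C libraries. RefSeq promoters on GRCh38.p14 were found for NPY, VIP, ADCYAP1, TAC1, SST, CALCA and CARTPT. The 250 bases before the start lie at chr3:187670395-187670644 (minus strand) for SST, chr5:71719025-71719274 (plus strand) for CARTPT, chr6:152750547-152750796 (plus strand) for VIP and chr7:24283940-24284189 (plus strand) for NPY. Capitals mark TGACG on either strand, which is one arm of the cAMP response element, the site that CREB family factors bind. Each is written 5′ to 3′ in the direction of the gene.
SST: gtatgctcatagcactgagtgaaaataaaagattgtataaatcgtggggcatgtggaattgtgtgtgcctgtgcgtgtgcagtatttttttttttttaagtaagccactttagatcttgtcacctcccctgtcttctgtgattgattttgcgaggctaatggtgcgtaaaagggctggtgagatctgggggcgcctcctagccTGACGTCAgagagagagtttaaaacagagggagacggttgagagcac
CARTPT: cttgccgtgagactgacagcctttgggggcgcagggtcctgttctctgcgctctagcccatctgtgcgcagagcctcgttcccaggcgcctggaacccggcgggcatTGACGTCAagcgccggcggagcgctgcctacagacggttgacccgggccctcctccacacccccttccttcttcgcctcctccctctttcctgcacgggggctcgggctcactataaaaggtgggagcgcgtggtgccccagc
VIP: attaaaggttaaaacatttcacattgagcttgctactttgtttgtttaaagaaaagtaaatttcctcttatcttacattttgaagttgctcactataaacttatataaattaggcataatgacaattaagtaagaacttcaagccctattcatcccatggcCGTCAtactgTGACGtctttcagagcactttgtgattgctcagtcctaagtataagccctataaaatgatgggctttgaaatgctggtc
NPY: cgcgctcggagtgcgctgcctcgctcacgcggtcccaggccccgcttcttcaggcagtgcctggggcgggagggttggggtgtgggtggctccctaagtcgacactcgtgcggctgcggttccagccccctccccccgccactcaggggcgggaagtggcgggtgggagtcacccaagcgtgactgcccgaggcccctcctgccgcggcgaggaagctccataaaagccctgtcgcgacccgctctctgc

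The full palindrome TGACGTCA stood in the SST window, from 47 to 40 bases before the start, and in the CARTPT window, from 143 to 136 bases before it. Of 35116 listed promoter windows of the same length, 1.65% held it. The arm TGACG stood alone on each strand of the VIP window and was not in the NPY window. It was found for ADCYAP1, CALCA, CARTPT, SST, TAC1 and VIP, in 6 of 8 windows (ADCYAP1 has 2 listed starts), and in 21.2% of all windows. The palindrome holds the arm on both strands, so these searches overlap. GATAA on either strand was in the windows of TAC1 and VIP and in 20.4% of all, and the E-box CANNTG was in 61.8% of all and in 5 of the 8 windows. These are matches of letters only, and no factor binding was measured.

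Total counts ran from 18737591 to 59512958 per library. LMO1 itself was at 6.59 and 5.89 CPM (reads of a gene as a share of the TMM-scaled library total, in the usual CPM unit) in the LMO1 libraries, 92.7 CPM in Kelly, 1.91 CPM in parental cells, and 1.06 and 0.928 CPM in the vector libraries. Sympathoadrenal markers (PHOX2A, HAND2, GATA3, ISL1, TH, DBH and CHGA) were detected in every library and summed to 3899 to 4844 CPM. The sum does not mean that single markers were alike between lines. In parental cells CHGA was at 3624 CPM, TH at 3.05 CPM and DBH at 35.1 CPM, and in Kelly they were at 1585, 399 and 860 CPM. Markers of endocrine pancreas or gut (INS, GCG, PPY, GAST) summed to at most 0.297 CPM, haematopoietic markers to at most 0.605 CPM, Schwann markers to at most 6.71 CPM, endothelial markers to at most 3.42 CPM and fibroblast markers to 102 to 190 CPM. The parental and Kelly libraries stood apart in their RNA content. Replication-dependent histone genes took 1.23% of the counts in both LMO1 libraries, 0.0138% in Kelly, 0.0423% in parental cells, and 1.01% and 1.02% in the vector libraries. The labels name the same kit for all 6 libraries. A difference in library preparation or batch cannot be told apart from the biology in any comparison with the parental or Kelly library, each being 1 library, and its part in those results was not tested.

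With forced LMO1 the abundant peptide RNAs stood in another balance than with vector. NPY, SST and CALCB rose, GAL and ADCYAP1 fell, and VIP was not called. Of the 10 genes, 3 were called higher, where 15.9% of 15480 genes tested were, and 2 lower, where 15.1% were (31.0% in either direction). Calls are edgeR quasi-likelihood tests at an adjusted p below 0.05. CALCA and CARTPT were tested and not called, and PENK and TAC1 had too few reads to be tested. A set of this size with such counts is a description of these genes and not a result about the set.

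**Figure D1:**
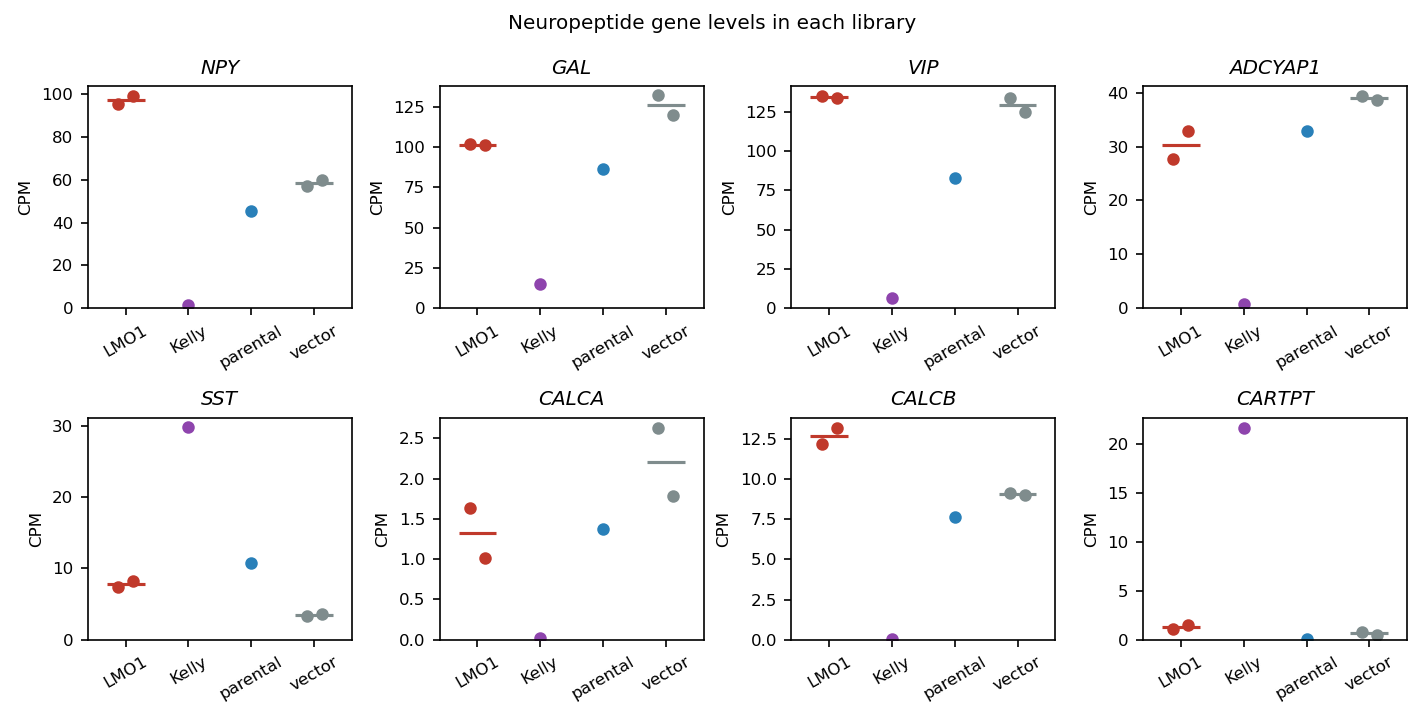
Levels of the 8 neuropeptide genes with enough reads for a test, in CPM on a linear axis from 0. Each point is 1 library and bars are means of 2 libraries. NPY was highest in the LMO1 libraries at 95.5 and 98.9 CPM, while SST and CARTPT were highest in Kelly at 29.8 and 21.6 CPM.

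NPY encodes neuropeptide Y, a vasoconstrictor and the main peptide partner of noradrenaline. It was at 95.5 and 98.9 CPM in the LMO1 libraries, against 57.1 and 59.8 CPM in the vector libraries. Both LMO1 libraries lay above every other library, since parental cells held 45.5 CPM. The means were 97.2 ± 2.37 CPM with LMO1 and 58.4 ± 1.87 CPM with vector (SD, n = 2 each). NPY rose 1.67-fold (log2 fold change 0.74, SE 0.0551, edgeR adjusted p = 2.17e-15). In bulk RNA, more cells that express a gene and more RNA per cell cannot be told apart, here and below.

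SST encodes somatostatin, an inhibitory peptide that restrains hormone and transmitter release. It was at 7.38 and 8.28 CPM with LMO1, against 3.37 and 3.59 CPM with vector. The groups did not overlap, and SST rose 2.26-fold (log2 fold change 1.17, SE 0.193, edgeR adjusted p = 3.35e-06). Parental cells had 10.8 CPM, above all 4 modified libraries. SST with LMO1 was thus higher than with vector but lower than in the parental library, which differs in histone content as given above. Added to the vector group, the parental library took the log2 fold change to 0.39 (edgeR adjusted p = 0.846).

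CALCB encodes the precursor of beta-CGRP, a vasodilator peptide. It was at 12.2 and 13.2 CPM with LMO1, against 9.14 and 9.04 CPM with vector, with 7.62 CPM in parental cells. It rose 1.41-fold (log2 fold change 0.49, SE 0.137, edgeR adjusted p = 0.00467). This call was lost without LMO1 replicate 2 (log2 fold change 0.43, edgeR adjusted p = 0.066).

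CALCA, the neighbouring gene, yields calcitonin or alpha-CGRP by alternative splicing, which counts per gene do not separate. It was at 1.63 and 1.02 CPM with LMO1 (31 and 23 reads), against 2.63 and 1.78 CPM with vector (57 and 44 reads). The LMO1 and vector values did not overlap, and the difference was not called (log2 fold change -0.73, SE 0.352, edgeR adjusted p = 0.111). The LMO1 values were thus the higher ones for CALCB and the lower ones for CALCA, with only CALCB past the threshold, and the difference between these genes was not tested. CALCA and CALCB are close paralogues, and in GENCODE 29 their spans overlap on opposite strands. The strand setting of the counting is not given in the sources used here, so reads may have been split between them in a way that cannot be followed. CALCB is also overlapped by OR7E41P on the other strand and by CALCP on the same strand, where strand would not separate reads.

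GAL encodes galanin, a peptide that sympathetic neurons make after injury and that neuroblastomas are known to express. It was at 102 and 101 CPM in the LMO1 libraries, against 132 and 120 CPM in the vector libraries. The groups did not overlap, and the parental library held less than either, at 86.5 CPM. GAL fell by 0.30 on the log2 scale (SE 0.0474, edgeR adjusted p = 1.4e-06). With the parental library added to the vector group the log2 fold change was -0.14 (edgeR adjusted p = 0.831).

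ADCYAP1 encodes PACAP, which drives catecholamine secretion from chromaffin cells. It was at 27.6 and 32.9 CPM with LMO1, against 39.3 and 38.6 CPM with vector, and parental cells held 32.8 CPM, just under the higher LMO1 library. It fell by 0.36 on the log2 scale (SE 0.0823, edgeR adjusted p = 0.00064). GENCODE 29 lists 2 genes that overlap ADCYAP1 on the other strand, and reads from them cannot be told apart if strand was not used.

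VIP encodes vasoactive intestinal peptide, a vasodilator and secretagogue. It was at 135 and 134 CPM with LMO1, against 134 and 125 CPM with vector, and the groups overlapped. VIP was not called, at a log2 fold change of 0.06 (SE 0.0438, edgeR adjusted p = 0.341). Parental cells held 82.7 CPM, below all 4 modified libraries.

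CARTPT encodes the CART peptide, found in sympathetic ganglia and adrenal medulla. It had 20 and 34 reads with LMO1, against 17 and 12 with vector, which is 1.05 and 1.51 CPM against 0.785 and 0.484 CPM. The LMO1 libraries were both higher, but CARTPT was not called (log2 fold change 1.04, SE 0.461, edgeR adjusted p = 0.0824). With all 6 libraries fitted together it passed the threshold (log2 fold change 1.05, edgeR adjusted p = 0.0258). Parental cells had 4 reads (0.0831 CPM, 95% exact Poisson interval 0.0226 to 0.213), below every modified library.

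PENK, the enkephalin precursor, and TAC1, the precursor of substance P and neurokinin A, were at or near the limit of detection. PENK had 0 and 2 reads with LMO1, 4 in Kelly, 2 in parental cells, and 0 and 0 with vector. TAC1 had 0 and 2 reads with LMO1, 2 in Kelly, and none in the parental and vector libraries. A count of 0 allows up to 3 reads, which is 0.158 CPM in the shallowest library and 0.0496 CPM in the deepest, for counting error only. Differences in these genes were not detectable at this depth.

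**Figure D2:**
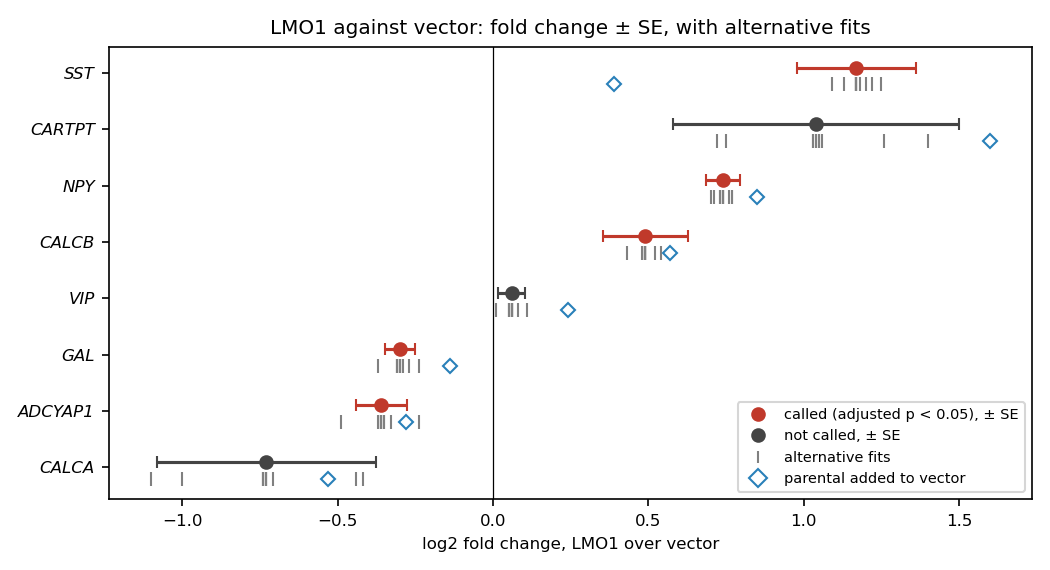
Log2 fold change of LMO1 over vector for the 8 tested genes, on a linear axis. Filled points are the reported fit ± SE and small ticks are the other fits. The open diamond adds the parental library to the vector group. SST at 1.17 moved most towards 0 under that addition, to 0.39, and NPY lay at 0.74 and 0.85.

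The calls against vector depend on which controls are used. With the parental library added to the vector group, an alternative chosen after the data were seen, edgeR called none of the 10 genes and none of all 15704 genes tested. At an unadjusted p under 0.05 it gave 2 of the 10 genes (NPY and CALCB) and 1381 of all genes. The NPY log2 fold change was then 0.85 (edgeR adjusted p = 0.276).

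Ratios within a library do not depend on how libraries are scaled. There were 0.708 and 0.738 NPY reads per VIP read in the LMO1 libraries, 0.236 in Kelly, 0.55 in parental cells, and 0.425 and 0.478 in the vector libraries. For GAL per VIP read the values were 0.757 and 0.754 with LMO1, 2.26 in Kelly, 1.05 in parental cells, and 0.978 and 0.961 with vector. In both ratios the LMO1 libraries lay outside the values of the parental and vector libraries, NPY above and GAL below. SST per VIP read was 0.0547 and 0.0618 with LMO1, 4.43 in Kelly, 0.131 in parental cells, and 0.0251 and 0.0287 with vector. For SST the parental library was above LMO1, as it was on the CPM scale.

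Levels of different genes were compared as CPM per kb of transcript, with the median length of the coding transcripts of each gene in GENCODE 29. On this scale NPY was the leading peptide RNA with LMO1, at 163 and 169 CPM per kb, and GAL the leading one with vector, at 161 and 147 CPM per kb. NPY made up 40.1% and 40.7% of the summed level of the 10 genes with LMO1, against 26.0% and 28.5% with vector. GAL made up 30.7% and 29.7% with LMO1, against 42.8% and 40.9% with vector. VIP followed, with 20.9% and 20.4% with LMO1, against 22.6% and 22.0% with vector. In the parental library GAL was at 38.6%, NPY at 28.4% and VIP at 19.1%. With the longest transcripts instead, GAL stayed first in the parental and vector libraries, and VIP (24.1%) came before NPY (23.0%) in vector library 1. The summed level itself was 407 and 415 CPM per kb with LMO1, 97.8 in Kelly, 274 in parental cells, and 376 and 359 with vector.

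**Figure D3:**
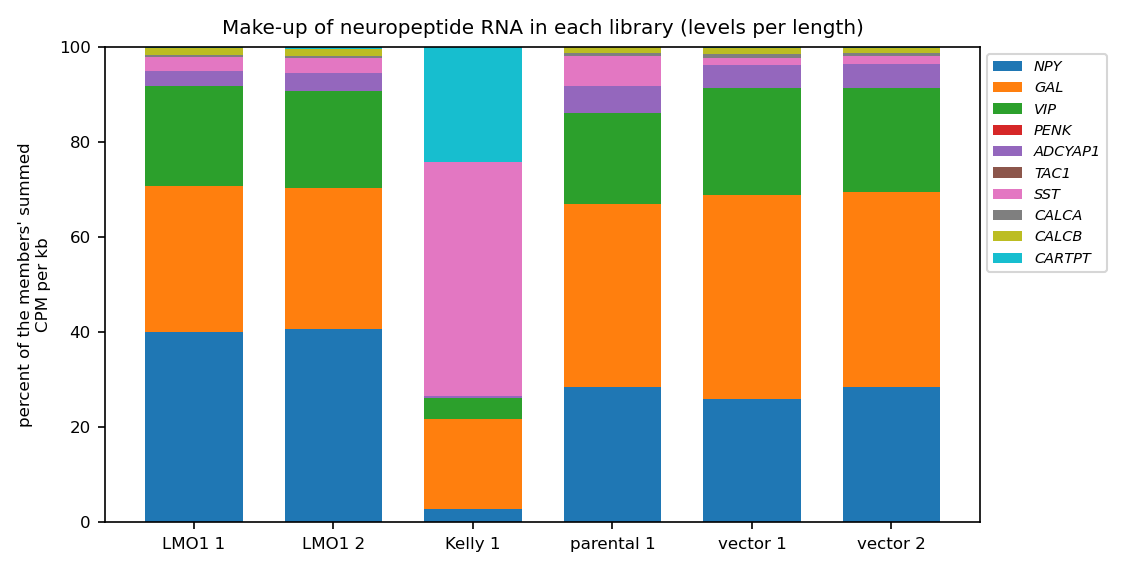
Share of each gene in the summed CPM per kb of the 10 neuropeptide genes, in percent, 1 bar per library. NPY takes 40.1% and 40.7% in the LMO1 libraries and 26.0% and 28.5% in the vector libraries, and SST takes 49.3% in Kelly.

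Kelly cells, a line with far more LMO1 RNA, had another set of peptides. Compared with parental BE2C, NPY, GAL, VIP, ADCYAP1, CALCA and CALCB were lower in Kelly, and SST and CARTPT were higher. Each line gave 1 library here, so the ratios have no replicate check and carry no p-value. By a 2-fold difference in CPM with 1 added, 2 of the 10 genes were higher and 6 lower, where 15.7% of 14977 genes compared were higher and 13.6% lower. Among parental BE2C and the vector libraries, which are the same line, 7.89% of 14369 genes were that much higher and 2.97% that much lower in parental cells. Of the 10 genes, SST alone differed by that much there, being higher in parental cells (log2 ratio 1.40), and CARTPT, PENK and TAC1 were under 1 CPM on both sides.

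CARTPT had 1305 reads in Kelly (21.6 CPM) and 4 in parental cells (0.0831 CPM), a ratio of 260 with a 95% counting interval of 101 to 954. It ranged up to 1.51 CPM over the 5 BE2C libraries. SST stood at 29.8 CPM in Kelly, against 10.8 CPM in parental BE2C, a ratio of 2.75 (2.49 to 3.04). Per kb SST and CARTPT led in Kelly with 49.3% and 24.1% of the summed level.

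NPY stood at 1.59 CPM in Kelly, against 45.5 CPM in parental BE2C, 28.7-fold lower in Kelly (95% counting interval 23.4 to 35.6). VIP had 6.73 CPM in Kelly, against 82.7 CPM in parental BE2C, 12.3-fold lower in Kelly (11.1 to 13.6). GAL had 15.2 CPM in Kelly, against 86.5 CPM in parental BE2C, 5.69-fold lower in Kelly (5.29 to 6.11), and with 19.0% of the summed level per kb it came after SST and CARTPT there. ADCYAP1 had 0.694 CPM in Kelly, against 32.8 CPM in parental BE2C, 47.2-fold lower in Kelly (34.8 to 65.8). CALCA had 1 read in Kelly and 66 in parental BE2C, 83.0-fold lower in Kelly (14.4 to 3326). CALCB had 2 reads in Kelly and 367 in parental BE2C, 231-fold lower in Kelly (63.4 to 1912). These intervals cover counting error only.

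**Figure D4:**
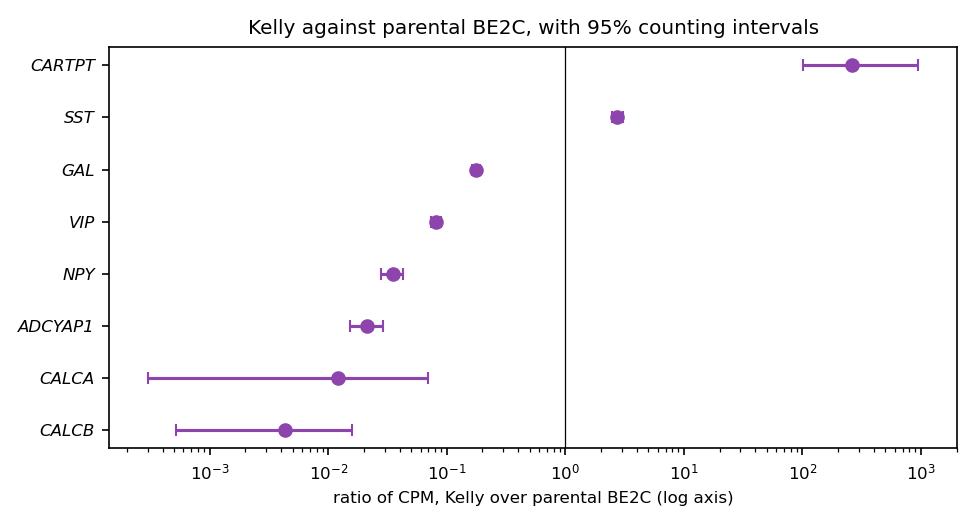
Ratio of CPM in Kelly over parental BE2C for the 8 genes that reached 1 CPM in either line, on a log axis, with 95% counting intervals. CARTPT at 260 and SST at 2.75 lie right of 1, and the other 6 genes lie left of it.

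Set against all 5 BE2C libraries, Kelly lay above every one of them for SST and CARTPT and below every one for NPY, GAL, VIP, ADCYAP1, CALCA and CALCB. Of all 15186 genes compared in this way, 39.6% lay above and 37.4% below, so a place outside the BE2C range is common. NPY and SST also do not order the lines alike. NPY was highest with LMO1 and lowest in Kelly. SST was higher with LMO1 than with vector and higher in Kelly than in parental cells, but lower with LMO1 than in parental cells. Any link of either order to the level of LMO1 RNA was not tested. Each order is a description with 1 Kelly library.

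Over the 6 libraries, the genes whose centred log2 levels came nearest to VIP were ANXA2, FUOM and LMNA (root mean square difference 0.091, 0.093 and 0.136, among 11689 genes that averaged 5 CPM or more). Nearest to GAL were ZAR1, SAMSN1 and SYT9 (0.07, 0.075 and 0.083). Each of these genes was lowest in Kelly. SYT9 is a synaptotagmin, a family of calcium sensors of vesicle release, and was at 64.7 and 67.1 CPM with LMO1, 9.82 CPM in Kelly, 62.3 CPM in parental cells, and 78.1 and 79.8 CPM with vector.

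Receptors for these peptides were read from a list of 27 symbols, of which 26 were in the table and 14 were tested. With LMO1, 5 were higher and 3 lower, and the median log2 fold change was 0.22, against 0.00 over all genes tested. Over all genes tested, 15.9% were higher and 15.1% lower. RAMP1, the partner that turns the calcitonin receptor-like receptor into a CGRP receptor, rose by 1.33 (SE 0.112), with 26.0 and 24.7 CPM against 10.2 and 10.1 CPM (edgeR adjusted p = 1.18e-13). CALCRL, the receptor itself, chosen after its values were seen, was at 3.64 and 4.38 CPM with LMO1 and 2.91 and 2.54 CPM with vector (edgeR adjusted p = 0.0716). Among somatostatin receptors SSTR2 fell by 0.82 (SE 0.17, edgeR adjusted p = 0.000151), SSTR3 fell by 1.24 (edgeR adjusted p = 0.0131) and SSTR5 rose by 1.18 (edgeR adjusted p = 0.00716). SSTR2 was at 5.53 and 4.69 CPM with LMO1, 9.47 and 8.64 CPM with vector, and 5.88 CPM in parental cells. SSTR3 was at 0.633 and 0.974 CPM with LMO1, 1.85 and 2.02 CPM with vector, and 1.06 CPM in parental cells. For both, the unmodified parental cells were thus also below the vector libraries. SSTR5 in parental cells, at 0.706 CPM, was below the LMO1 and vector libraries. The SSTR3 call was lost without LMO1 replicate 1 or vector replicate 2 (edgeR adjusted p = 0.149 and 0.105). The SSTR5 call was lost without LMO1 replicate 1, LMO1 replicate 2 or vector replicate 1 (edgeR adjusted p = 0.0586, 0.0704 and 0.0778). The presynaptic NPY receptor NPY2R fell by 0.31 (SE 0.0831, edgeR adjusted p = 0.00321), a call lost without vector replicate 2 (edgeR adjusted p = 0.0805). NPY1R had 1 read in all and NPY5R none. The mu opioid receptor OPRM1 was at 127 and 127 CPM with LMO1 and 86.4 and 79.7 CPM with vector, but at 229 CPM in parental cells. The other higher genes were ADCYAP1R1 (log2 fold change 0.16) and GALR1 (1.29). ADCYAP1R1 was at 105 and 101 CPM with LMO1, but at 251 CPM in parental cells. GALR1 was at 1.58 and 1.06 CPM with LMO1, and at 1.43 CPM in parental cells. These genes are named after their values were seen. Both were lost without LMO1 replicate 1 (edgeR adjusted p = 0.165 and 0.304), ADCYAP1R1 also without vector replicate 2 (0.155), and GALR1 also without LMO1 replicate 2 (0.0713) or vector replicate 1 (0.338). In Kelly, NPY2R was at 1.44 CPM against 29.9 CPM in parental cells, OPRM1 at 0.116 against 229 CPM, and SSTR3 at 11.5 against 1.06 CPM.

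Called genes of the peptide processing and breakdown list were all higher with LMO1, and they are not all enzymes. Of those tested, 10 were not called. Of 19 processing and breakdown genes, 17 were tested, 7 were higher with LMO1 and 0 lower by edgeR, with a median log2 fold change of 0.03. Over all genes tested, 15.9% were higher and 15.1% lower. DESeq2 and limma-voom also called 0 lower, and 1 was lower at an unadjusted p under 0.05. PCSK1, the convertase that opens many precursors, was at 76.6 and 78.1 CPM with LMO1 and 34.0 and 38.3 CPM with vector (log2 fold change 1.10, SE 0.0666, edgeR adjusted p = 1.41e-18). CPE, which trims the cut ends, rose by 2.17 (SE 0.122), and SCG5, the chaperone of the other convertase PCSK2, rose by 2.18 (SE 0.0799). QPCT, which caps peptide ends, rose by 1.51 (SE 0.169). The other calls were ECE1 (log2 fold change 0.65), PCSK1N (0.73) and PAM (0.28), with PCSK1N and PAM named after their values were seen. ECE1 was at 74.5 and 65.6 CPM with LMO1, but at 83.7 CPM in parental cells. For the other called genes of this list the parental library was below both LMO1 libraries. PCSK2 was at 23.2 and 23.6 CPM with LMO1 and 21.7 and 24.3 CPM with vector. Kelly had 1 read of PCSK1 and 0 of PCSK2, against 48.5 and 15.8 CPM in parental cells, while its CPE was at 58.6 CPM against 12.5 CPM.

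**Figure D5:**
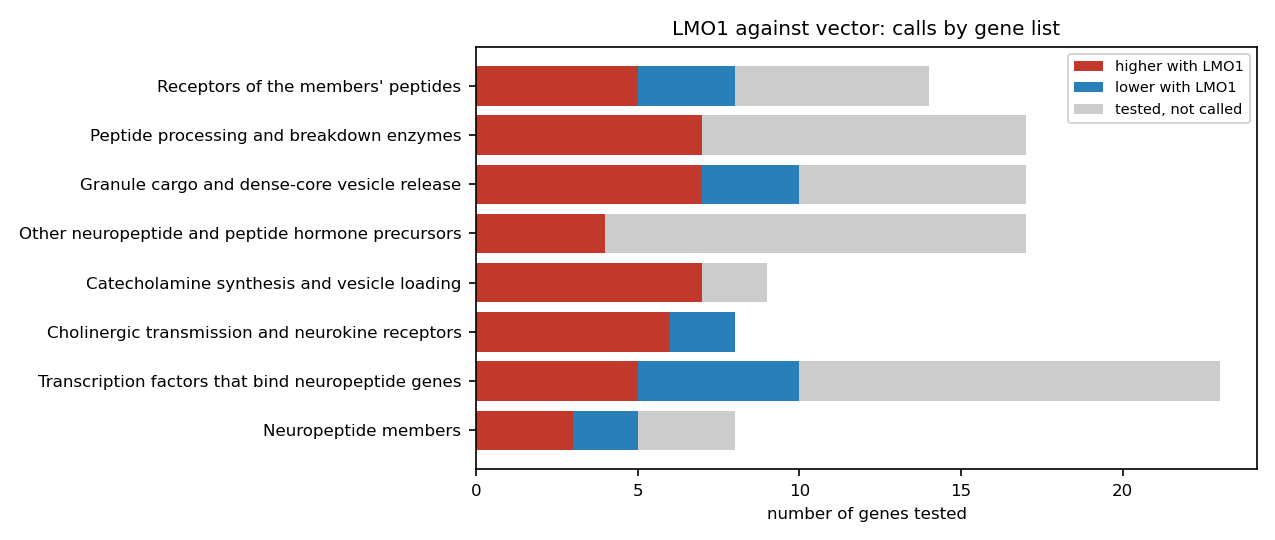
Number of genes tested in each list, split into higher with LMO1, lower with LMO1 and not called. The peptide processing list has 7 higher and 0 lower of 17, and the neuropeptide genes have 3 higher and 2 lower of 8 tested. Over all genes tested, 15.9% were higher and 15.1% lower.

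The counts of the remaining lists are descriptions, to be read beside 15.9% higher and 15.1% lower over all genes tested. Of 17 granule and release genes tested, 7 were higher with LMO1 and 3 lower (median log2 fold change 0.19). CHGB was up by 0.75, VGF up by 0.98 and CHGA down by a log2 value of -0.14. The calls of PTPRN (0.11) and SYT1 (-0.11) did not hold in every fit with 1 library left out. Of 50 other peptide precursors 17 were tested, 4 were higher and 0 lower (median 0.38), and these were CRH at 13.0 and 11.8 CPM against 3.05 and 3.11 CPM, ADM, NMU and APLN. Parental cells held 11.8 CPM of CRH, as much as LMO1 library 2, and 6.81 CPM of ADM, above both LMO1 libraries (5.22 and 6.33 CPM). For NMU (0.312 CPM) and APLN (2.85 CPM) the parental library was below both LMO1 libraries. Of 9 catecholamine genes, 7 were higher and 0 lower (median 0.49), led by DBH, which rose by 2.57. In these 2 lists edgeR gave 0 lower at an unadjusted p under 0.05 as well, as did DESeq2 and limma-voom after adjustment. Of 8 cholinergic and neurokine receptor genes tested, 6 were higher and 2 lower (median 0.94), with the acetylcholine vesicle transporter SLC18A3 up by 1.45 and LIFR down by a log2 value of -0.70. Only 3 were higher without LMO1 replicate 1, LMO1 replicate 2 or vector replicate 2, and 4 without vector replicate 1, and 1 was lower without vector replicate 2. DESeq2 called 2 higher and 1 lower. Of 23 factors known to bind neuropeptide genes, 5 were higher and 5 lower (median 0.02). Without LMO1 replicate 2 or vector replicate 2, and by DESeq2, 3 were higher. Among them the AP-1 gene FOS was at 39.0 and 38.5 CPM with LMO1, 4.31 CPM in Kelly, 4.61 CPM in parental cells, and 8.64 and 8.92 CPM with vector. Whether these genes and the neuropeptide genes are linked was not tested.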

How the data were processed

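RNA from 6 libraries was measured by paired-end sequencing of a stranded total RNA kit on a HiSeq instrument, per the labels' protocols. The deposited table holds the authors' counts of reads by gene symbol, as whole numbers that were not normalized. TopHat2 2.0.6, HTSeq and hg19 are named in the submitters' processing notes, and the annotation, strand setting and filters are not given in the sources used here.

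LMO1 libraries (2) were set against vector libraries (2) in edgeR 4.0.16 under R 4.3.3 (TMM scaling, filterByExpr, quasi-likelihood F test, Benjamini-Hochberg adjustment over all 15480 genes tested, threshold 0.05). SE was derived from the F statistic. The common biological coefficient of variation was 3.60% with 2 residual and 43.7 prior degrees of freedom. The fit was tested on simulated data. TMM factors over all 6 libraries scale the CPM values. Kelly against parental BE2C, and parental against vector, were ratios without a test, over genes that reached 1 CPM in either group, with 1 CPM added for the 2-fold rule and exact 95% counting intervals. The 10 members and 7 related lists were chosen with earlier results of these data known. The named genes were all members, LMO1, from each list up to 5 called genes with the lowest adjusted p and the 3 highest and 3 lowest Kelly ratios, and the 3 genes most like each of the 2 members with the highest mean, so a few of those set by the rule are left unprinted. Others are named after their values were seen. A listed marker is not reported here and was left out of the lists. Alternatives were other scaling, filters, tools (DESeq2 1.42.0, limma-voom in limma 3.58.1), libraries left out or added, a replicate block, another pseudocount and another transcript length. Libraries of 1 group differed beyond counting error (chi-square over its degrees of freedom 2.90 for LMO1 and 2.33 for vector). Lengths, gene spans and promoters come from GRCh38 annotations, a later build than that of the counts, so no gene coordinates are given for counts.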

Additional observations from a re-analysis of the deposited data

How the results depend on the processing

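NPY, GAL, ADCYAP1 and SST kept their direction and call in all 12 alternatives listed at the outset, and CALCB in all but 1. DESeq2 called fewer genes overall (1539 higher and 1431 lower, against 2463 and 2334), and with it related lists had 2 higher receptors, 2 higher and 1 lower cholinergic genes and 3 higher transcription factors. With the parental library added to the vector group, edgeR gave 0 calls in either direction for all genes, the neuropeptide genes and each related list, with a smallest adjusted p of 0.115 and 1381 genes at an unadjusted p under 0.05, and OPRM1 turned to -0.04 and ADCYAP1R1 to -0.49. The cause was not tested. Leaving out each library in turn gave 1772 to 1914 higher and 1670 to 1745 lower genes, 2 to 3 higher and 2 lower neuropeptide genes, 2 to 4 higher and 1 to 3 lower receptors, 3 to 4 higher and 1 to 2 lower cholinergic genes, and 3 to 4 higher transcription factors. Same-numbered libraries did not deviate together (correlation -0.0209 over 15480 genes), and the replicate block left 3 higher and 2 lower neuropeptide genes, with NPY at 0.74. With other scaling the median over all genes was -0.002 and 0.028 for LMO1 against vector (0.001 as reported), 0.007 and 0.018 for Kelly against parental cells (-0.020 as reported) and 0.008 and 0.039 for parental cells against vector (0.036 as reported). Ratios of the 8 genes in Kelly, and of the 7 genes compared between parental cells and vector, kept their side of 2-fold under the scalings, pseudocount and comparators tried. CARTPT, under 1 CPM in parental cells and vector, had a log2 ratio of -0.59 there with 1 CPM added and -1.41 with 0.25 CPM added. With the longest transcripts, NPY made up 36.2% in LMO1 library 1 and SST 49.6% in Kelly, and VIP (24.1%) came before NPY (23.0%) in vector library 1. Depth limits PENK, TAC1, CALCA and CARTPT.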
